A study of Mus musculus with 107 samples.

Results

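Livers with high measured levels of the fatty acid desaturase genes Fads1 and Fads2 and of Mlxipl were compared with livers in which these genes were low, the mice being chosen by those levels. Each mouse received a score, the mean of the z-scored values (each probe's value minus its mean, over its SD) of the 4 probes annotated to Fads1, Fads2 or Mlxipl, and Fads2, with 2 probes, therefore counted double. The 26 mice of highest score are called desaturase-high, the 26 of lowest score desaturase-low, and the other 52 of the 104 mice lay between. All of them were female F2 mice descended from the inbred parents C57BL/6J and DBA/2J, and all ate an atherogenic diet, so no mouse was on a control diet and none was treated differently from the rest. In an F2 generation every mouse carries its own mixture of both parental genomes, and genotypes were not used here. The labels used here give no age, no genotype at any locus and no time of day. RNA of each liver went onto 1 array of 2 colours, against a pool of equal RNA portions of the samples. The sets were cut from measured levels and not from a treatment, so the comparison asks which other genes vary with the score from mouse to mouse.

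Fads1 and Fads2 encode the delta-5 and delta-6 desaturases, which, in alternation with the elongases, convert the dietary essential fatty acids linoleate and alpha-linolenate into arachidonate, eicosapentaenoate and docosahexaenoate. The liver is a major site of this pathway, and its products enter phospholipids and serve as ligands and precursors of lipid mediators. Mlxipl encodes ChREBP, a transcription factor that responds to glucose metabolites and induces genes of glycolysis and fatty acid synthesis. SREBP-1c, encoded by Srebf1, and the nuclear receptor PPAR alpha, encoded by Ppara, are known regulators of both desaturase genes in mouse liver.

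Of 107 arrays, 3 had no value other than 0, and without them n = 104 (the labels state 111 mice). Values were read as ratios of mouse to pool on a log10 scale, 0 being the level of the pool. Base 10 was assumed, since the values end exactly at -2 and 2, and folds would be smaller under base 2 or e. Which way the ratios run was not settled: no dyes are named in the labels, and among 5356 pairs of arrays 7 had a correlation below -0.3, the lowest being -0.463. These pairs hold 10 arrays, of which 2 were desaturase-high and 5 desaturase-low. If the signs of all arrays were turned, the 2 sets would change places, and every difference of desaturase-high minus desaturase-low would keep its sign and size. On 18 arrays, called limit-rich, 946 to 1828 values lay at the limits, against at most 496 on any other array, and 6 of the 18 were desaturase-high and 3 desaturase-low. Genes of pancreas or muscle were high in 6 mice, of which 3 were desaturase-high and 1 desaturase-low. A ratio to a pool does not show the level of a marker within a liver, so the tissue label could not be checked by level. Every mouse was measured once, and precision is limited by how many arrays there are.

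Promoter regions are shown for 2 score genes, for Elovl5, an elongase of the same pathway, and for Ctss, a macrophage gene, because their levels moved together or in opposite directions over these mice. Each window holds 300 bases around the gene's annotated start (RefSeq, build GRCm38.p6), printed on the gene's own strand. Capitals mark matches, on either strand, to TCACNCCAC (a site bound by SREBP factors), CCAAT (NF-Y), CACGTG (the E-box that ChREBP and related factors bind) and GAGGAAGT (PU.1, a factor of myeloid cells). A match written on the other strand reads ATTGG for CCAAT and ACTTCCTC for GAGGAAGT, while CACGTG reads the same on both, and no 2 matches overlap here. Fads2 lies on chr19:10101454-10101753 (minus strand), Mlxipl has 2 annotated starts, at chr5:135106641-135106940 and chr5:135089640-135089939 (both plus strand), Elovl5 lies on chr9:77917115-77917414 and Ctss on chr3:95526536-95526835 (both plus strand).
Fads2: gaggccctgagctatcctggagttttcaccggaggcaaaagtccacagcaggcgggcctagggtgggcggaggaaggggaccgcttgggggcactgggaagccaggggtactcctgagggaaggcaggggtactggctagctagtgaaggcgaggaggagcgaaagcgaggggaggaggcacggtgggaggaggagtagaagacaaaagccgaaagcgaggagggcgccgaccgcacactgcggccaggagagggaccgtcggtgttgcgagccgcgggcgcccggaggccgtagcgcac
Mlxipl window 1: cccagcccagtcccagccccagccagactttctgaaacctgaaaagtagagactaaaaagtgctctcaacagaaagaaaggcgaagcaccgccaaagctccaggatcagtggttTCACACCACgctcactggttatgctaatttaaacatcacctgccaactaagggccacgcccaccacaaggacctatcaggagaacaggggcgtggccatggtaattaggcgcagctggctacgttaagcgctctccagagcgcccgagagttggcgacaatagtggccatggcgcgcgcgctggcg
Mlxipl window 2: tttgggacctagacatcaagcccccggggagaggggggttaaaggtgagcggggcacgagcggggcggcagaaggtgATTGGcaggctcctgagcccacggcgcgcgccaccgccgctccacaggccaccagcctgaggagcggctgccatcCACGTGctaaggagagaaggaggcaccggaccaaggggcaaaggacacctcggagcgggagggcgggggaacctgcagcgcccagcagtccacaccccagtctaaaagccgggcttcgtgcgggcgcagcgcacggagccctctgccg
Elovl5: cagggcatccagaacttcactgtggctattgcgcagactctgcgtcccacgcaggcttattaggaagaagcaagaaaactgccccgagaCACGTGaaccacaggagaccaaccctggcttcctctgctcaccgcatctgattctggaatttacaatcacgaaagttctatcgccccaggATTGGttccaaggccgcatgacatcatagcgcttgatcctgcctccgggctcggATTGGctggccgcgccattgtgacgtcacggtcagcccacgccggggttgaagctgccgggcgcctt
Ctss: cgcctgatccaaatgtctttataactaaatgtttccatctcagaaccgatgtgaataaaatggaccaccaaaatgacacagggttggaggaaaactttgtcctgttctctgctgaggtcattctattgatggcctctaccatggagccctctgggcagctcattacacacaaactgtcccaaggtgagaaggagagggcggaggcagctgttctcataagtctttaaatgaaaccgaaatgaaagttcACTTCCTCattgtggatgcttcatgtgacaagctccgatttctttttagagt
The Fads2 window holds none of these letters. The first Mlxipl window holds 1 TCACNCCAC, starting 136 bases before the annotated start, and the second holds 1 CCAAT and 1 CACGTG. The Elovl5 window holds 2 CCAAT and 1 CACGTG, and that of Ctss holds 1 GAGGAAGT that covers the start itself. A window of Anxa1, another gene lower in desaturase-high livers, was searched too, held none of these letters and is not printed. Among all 32851 windows of the table, 1.24% hold TCACNCCAC, 37.4% CCAAT, 7.15% CACGTG and 3.20% GAGGAAGT. A match is a description of letters and was not tested as a binding site.

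The levels that chose the mice are given as a description, with no test. Fads1 ran from -0.0473 to 0.262 (median 0.0925) in desaturase-high livers, against -0.706 to 0.0299 (median -0.214) in desaturase-low livers. The 2 Fads2 probes had medians of 0.166 and 0.129 in desaturase-high livers and of -0.219 and -0.172 in desaturase-low livers, and on neither probe did the sets overlap. Mlxipl ran from -0.113 to 0.192 (median 0.00506) in desaturase-high livers, against -0.809 to -0.00512 (median -0.222) in desaturase-low livers. The means of the sets differed 2.18-fold for Fads1, 2.83-fold and 2.20-fold for the Fads2 probes and 1.86-fold for Mlxipl. Of the 26 desaturase-high livers, 22 lay above every desaturase-low liver for Fads1 and 13 did so for Mlxipl, so the Fads2 probes separate the sets fully and Fads1 and Mlxipl in part.

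Over the 104 mice the 4 probes correlated pairwise at 0.629 to 0.885, a description over arrays that share the pool. The score ran from 0.552 to 1.43 (median 0.841) in desaturase-high mice and from -3.97 to -0.429 (median -0.770) in desaturase-low mice. The spread was therefore uneven: the lower set reached far from the rest, and the upper set was compact. Just inside and just outside the upper threshold lay mouse 47 at 0.552 and mouse 62 at 0.535, and at the lower one mouse 103 at -0.429 and mouse 49 at -0.393. A score without the Mlxipl probe would have placed 23 of the desaturase-high and 24 of the desaturase-low mice in the same set, and a score of Mlxipl alone 12 and 17. In the sets cut from the desaturases alone, Mlxipl, which then took no part in the choice, averaged -0.00617 ± 0.0988 in the high mice and -0.225 ± 0.211 in the low mice (SD, n = 26 each), a 1.66-fold difference.

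**Figure D1:**
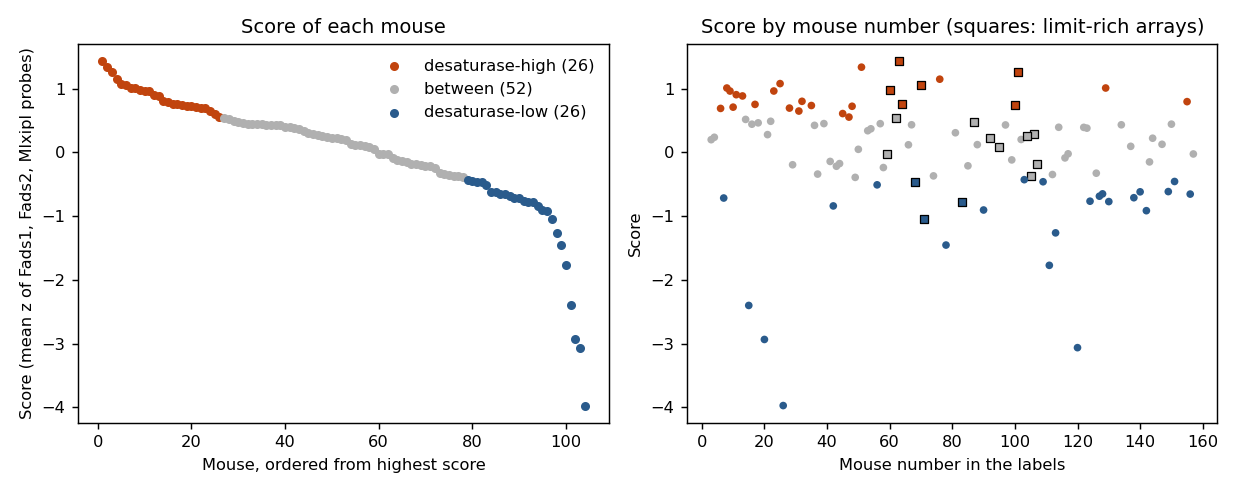
Left, the score of each of the 104 mice, ordered from the highest, in units of SD. Right, the same score against the mouse number in the labels, with limit-rich arrays as squares. Desaturase-high mice (orange, 0.552 to 1.43) lie mostly at low mouse numbers and desaturase-low mice (blue, -3.97 to -0.429) mostly at high ones, with the 52 mice between in grey.

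The mouse numbers moved with the sets. Their median was 40 in desaturase-high mice and 110 in desaturase-low mice, and 21 of the 26 desaturase-high mice but 7 of the 26 desaturase-low mice lay at or below the median number of all mice, 70.5. The labels do not say what the numbers stand for. The level of macrophage genes moved with the sets as well. The mean over the 17 measured genes of the macrophage and Kupffer cell list ran from -0.470 to -0.0125 (median -0.282) in desaturase-high livers, against -0.111 to 0.362 (median 0.0561) in desaturase-low livers. By this mean 24 desaturase-high livers lay below every desaturase-low liver. In whole liver RNA, fewer cells of a type and less RNA per cell cannot be told apart. Results are therefore also given with the mouse number (at or below against above the median) as a block and with the macrophage mean as a covariate.

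Many genes differed between the sets. Of 12312 genes tested, with the 3 score genes left out, 3021 (24.5%) were higher and 2428 (19.7%) were lower in desaturase-high livers at an adjusted p under 0.05, so 44.3% of genes were called and the counts of each list below are to be read against these shares. At least 1.5-fold differences were found for 487 higher genes (3.96%) and 952 lower genes (7.73%). The median difference of all genes was 0.0130 on the log10 scale. With each array's median subtracted the counts were 2250 higher and 2808 lower, so that 44.5% of the calls were higher, against 55.4% before. With the limit-rich arrays left out and the 22 highest compared with the 22 lowest of the other arrays, the counts were 2893 and 2327.

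The counts were 2655 higher and 2361 lower with the mouse number as a block, and 4549 of the 5449 calls were kept with their direction. Within the mice of lower number, 21 against 7, 2114 genes were higher and 2053 lower, and within those of higher number, 5 against 19, 617 and 989. Within the 9 limit-rich arrays, 6 against 3, the counts were 423 and 479. With the macrophage mean as a covariate, 33 genes (0.268%) were higher and 38 (0.309%) lower, all of them called in the same direction without it, while 5237 of the 5449 called genes kept their sign.

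The 52 mice between took no part in the comparison and have a narrower range of the score, from -0.393 to 0.535. In them, 381 genes (3.09%) rose and 738 (5.99%) fell with the score. Of the rising genes 95.3% were also higher in desaturase-high livers, and of the falling genes 97.7% were also lower, while no gene was called in opposite directions. These shared genes make up 12.0% of the higher and 29.7% of the lower calls. Both comparisons share the pool.

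Among the genes of polyunsaturated fatty acid synthesis other than the score genes, the elongases of the same pathway were higher in desaturase-high livers, whereas another gene of the desaturase cluster and the brain-type stearoyl desaturase were lower. Of 14 measured members of the list of desaturation and elongation, 4 (28.6%) were higher and 3 (21.4%) lower, with a median difference of 0.0444, shares close to those of all genes. Elovl5, the elongase that acts between the delta-6 and delta-5 steps, ran from -0.0112 to 0.315 (median 0.126) in desaturase-high livers, against -0.699 to 0.165 (median -0.276) in desaturase-low livers. It was 2.65-fold higher (0.423 ± 0.0448 log10, SE, adjusted p = 5.06e-11), and 24 desaturase-low livers lay below every desaturase-high liver. Elovl2, the elongase of the later steps towards docosahexaenoate, ran from -0.0695 to 0.260 (median 0.118) in desaturase-high livers, against -0.888 to 0.0368 (median -0.155) in desaturase-low livers. It was 2.30-fold higher (0.361 ± 0.0446 log10, adjusted p = 3.14e-09), and 21 desaturase-high livers lay above every desaturase-low liver.

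Of the enzymes that complete each elongation cycle, Tecr, the enoyl-CoA reductase, was higher by 0.134 ± 0.0193 (adjusted p = 1.10e-07) and Hacd3, a hydroxyacyl-CoA dehydratase, by 0.127 ± 0.0317 (adjusted p = 0.000911). Hsd17b12, the ketoacyl-CoA reductase (0.0593 ± 0.0306, adjusted p = 0.111), and Hacd2, a paralog of Hacd3 (0.00494 ± 0.0308, adjusted p = 0.913), did not pass. Tecr and Elovl2 also rose with the score in the mice between (adjusted p = 0.0142 and 0.0193), while Elovl5 had a slope of 0.225 log10 per unit of score there and did not pass (adjusted p = 0.0636). Other members stayed near 0, among them Elovl1 (-0.0178 ± 0.0153, adjusted p = 0.361), which elongates saturated and monounsaturated chains, Elovl3 (0.0339 ± 0.0209) and Acsl3 (0.0548 ± 0.0291). Cyb5r3, the reductase that supplies electrons to the desaturases through cytochrome b5, had a difference of 0.108 ± 0.0690 and did not pass (adjusted p = 0.207). Cyb5a, cytochrome b5, shared its value with Scd1 on 86 of 104 arrays. Nothing is read here from its difference (0.0146 ± 0.0374, adjusted p = 0.783).

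Fads3, the neighbour and paralog of Fads1 and Fads2, went the other way. It ran from -0.292 to -0.0535 (median -0.151) in desaturase-high livers, against -0.122 to 0.668 (median 0.170) in desaturase-low livers, was 2.24-fold lower (-0.350 ± 0.0477 log10, adjusted p = 3.17e-08), and 19 desaturase-high livers lay below every desaturase-low liver. Scd2, a stearoyl-CoA desaturase abundant outside the adult liver, ran from -0.760 to -0.198 (median -0.431) in desaturase-high livers, against -0.337 to 0.766 (median 0.296) in desaturase-low livers. It was 5.07-fold lower (adjusted p = 4.33e-13), the largest difference of the list. Acsl4, the acyl-CoA synthetase that prefers arachidonate, was 1.68-fold lower (-0.226 ± 0.0325 log10, adjusted p = 1.12e-07). All 3 also fell with the score in the mice between (adjusted p = 0.0206, 0.00185 and 0.00566), and none of the 7 called members of the list passed with the macrophage mean as a covariate, where Scd2 had a difference of -0.305 (adjusted p = 0.0831) and Elovl5 of 0.293 (adjusted p = 0.0591).

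Of the 6 measured genes within 4 genes of Fads1 and Fads2 on chromosome 19, in the order of assembly GRCm38.p6, 5 were lower. Besides Fads3 these were Rab3il1 (1.81-fold lower, adjusted p = 1.48e-09), Best1 (1.25-fold lower, adjusted p = 3.25e-05), Fen1 (1.21-fold lower, adjusted p = 0.0279) and Tmem258 (1.21-fold lower, adjusted p = 0.000404), while Fth1, the ferritin heavy chain, had a difference of 0.00136 ± 0.0399 and did not pass (adjusted p = 0.981). Fth1 is one of the genes that share 1 value with Scd1 on most arrays. None of the 6 was higher, as Fads1 and Fads2 were by the choice of mice. Next to Mlxipl on chromosome 5, Bud23 (1.12-fold higher, adjusted p = 0.0204) and Dnajc30 (1.22-fold higher, adjusted p = 0.000177) were higher, and Stx1a, Tbl2, Baz1b and Fzd9 did not pass. With the mouse number as a block Bud23 did not pass either (0.0293, adjusted p = 0.271). Of all genes tested on chromosome 19, 49.3% were called, and 45.1% on chromosome 5, against 44.3% of all genes.

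**Figure D2:**
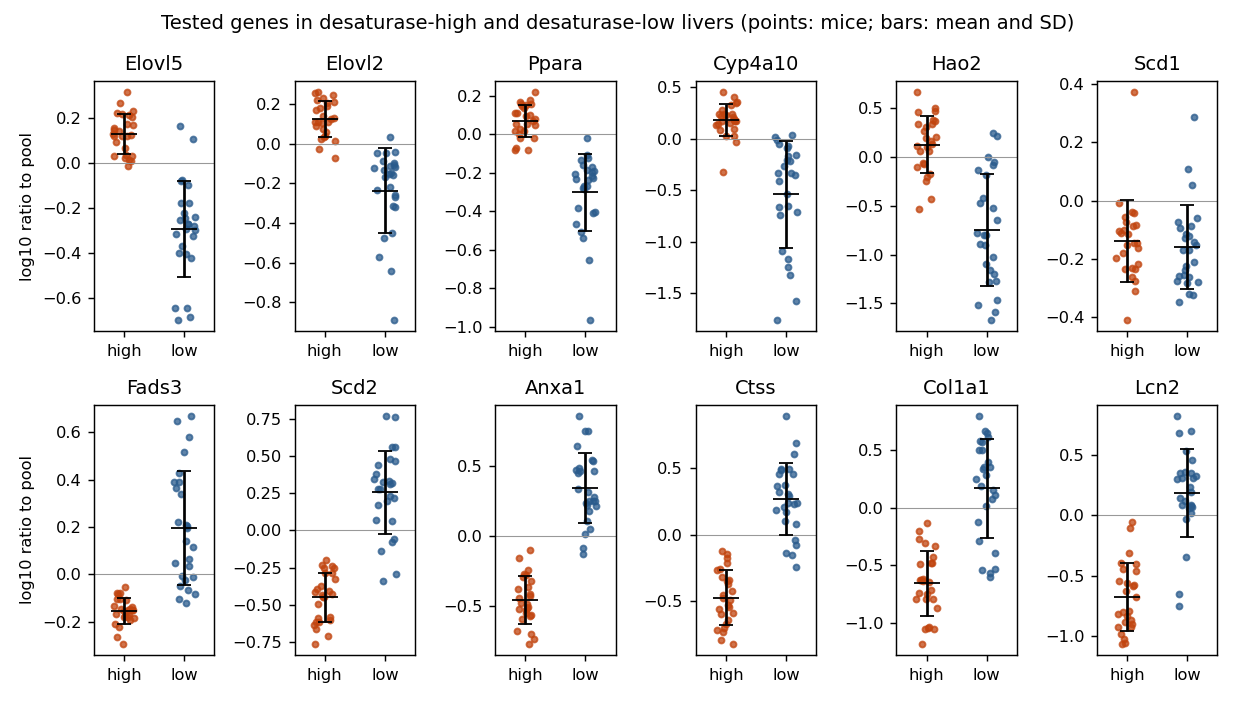
log10 ratio to the pool of 12 tested genes in the 26 desaturase-high (orange, left) and 26 desaturase-low livers (blue, right), with points for mice and bars for mean and SD. Elovl5, Elovl2, Ppara, Cyp4a10 and Hao2 lie higher in desaturase-high livers and Fads3, Scd2, Anxa1, Ctss, Col1a1 and Lcn2 lower, while Scd1, whose value was shared with other genes on most arrays, differs by 0.0203 and did not pass.

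Genes of fatty acid synthesis were in part higher, while the enzymes Fasn and Acly at the centre of the pathway did not pass. Scd1 shared its value with other genes on most arrays, and nothing is read from it here. Of 11 measured members 6 (54.5%) were higher and 1 lower, with a median difference of 0.123. Me1, malic enzyme, which supplies NADPH, ran from -0.124 to 0.264 (median 0.130) in desaturase-high livers, against -0.547 to 0.255 (median -0.176) in desaturase-low livers, and was 1.82-fold higher (0.260 ± 0.0402 log10, adjusted p = 4.95e-07). Srebf1, which encodes SREBP-1, was 1.55-fold higher (adjusted p = 0.000231). Gpam, the mitochondrial acyltransferase that starts glycerolipid synthesis, was 1.41-fold higher (adjusted p = 8.94e-06), and the citrate carrier Slc25a1 was 1.37-fold higher (adjusted p = 2.65e-06).

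Scd1, the main stearoyl desaturase of adult liver and a target of SREBP-1c, averaged -0.140 ± 0.141 in desaturase-high livers and -0.160 ± 0.145 in desaturase-low livers (SD), a difference of 0.0203 ± 0.0390 (adjusted p = 0.705). Its value was shared on most arrays: 21 other genes held the same value within 0.0005 log10 on at least 52 of the 104 arrays, among them Cyb5a on 86, Alb on 83 and Fth1 on 81. Over all other genes the median number of such arrays was 0. Why these genes share a value was not tested, and nothing is read here from the small difference of Scd1. Of the 21 genes 8 are in a list and 2 were called, Fabp1, the liver fatty acid binding protein, and Pzp, a protease inhibitor of plasma, both named after their values were seen.

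Fasn, fatty acid synthase, differed by 0.0723 ± 0.0445 (adjusted p = 0.187), Acly, ATP citrate lyase, by 0.0156 ± 0.0218 (adjusted p = 0.593) and Thrsp, a thyroid and carbohydrate responsive gene, by 0.123 ± 0.0699 (adjusted p = 0.152). Even with 2 SE added, these 3 differences between the sets stay under those of Elovl5 and Elovl2. In the mice between this order did not hold. There the slopes were 0.289 for Thrsp, 0.179 for Fasn and 0.0524 for Acly, against 0.225 for Elovl5 and 0.163 for Elovl2. None of Thrsp, Fasn and Acly passed there (adjusted p = 0.104, 0.0717 and 0.389). Pklr, the liver pyruvate kinase (1.37-fold higher, adjusted p = 0.00336), was the one member that also rose with the score in the mice between (adjusted p = 0.0150). Insig2, which retains SREBP in the endoplasmic reticulum, was 1.35-fold lower (-0.130 ± 0.0449 log10, adjusted p = 0.0153). Acss2, the cytosolic acetyl-CoA synthetase, was 1.28-fold higher (adjusted p = 0.00345), but its difference was -0.00723 within the limit-rich arrays.

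Among ChREBP targets and genes of carbohydrate use, 6 of 11 members were higher and 1 lower, with a median difference of 0.123. Khk, ketohexokinase of fructose metabolism, was higher by 0.176 ± 0.0457 log10 (adjusted p = 0.00136). Gpd1, glycerol-3-phosphate dehydrogenase, averaged 0.0606 ± 0.146 in desaturase-high livers and -0.232 ± 0.305 in desaturase-low livers (SD) and was 1.96-fold higher (adjusted p = 0.000217). Fgf21, a hormone of the liver induced by ChREBP and by PPAR alpha, was 2.34-fold higher (adjusted p = 0.00142) with wide overlap of the sets. G6pc, glucose-6-phosphatase, was 1.60-fold higher (adjusted p = 0.00181), and Slc2a2, the liver glucose transporter, was 1.33-fold higher (adjusted p = 0.0334), with a difference of -0.0437 within the limit-rich arrays and of 0.118 with the mouse number as a block, where it did not pass (adjusted p = 0.0968).

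Khk, Gpd1 and Pklr rose with the score in the mice between as well (adjusted p = 0.00305, 0.000631 and 0.0150). Taldo1, of the pentose phosphate pathway, was 1.22-fold lower (adjusted p = 2.48e-06), and Tkt of that pathway (-0.0380 ± 0.0244), Txnip, a strong ChREBP target in many cells (-0.0181 ± 0.0524), Mlx, the partner of ChREBP (-0.00707 ± 0.0155), and Arnt2, a basic helix-loop-helix transcription factor (0.0413 ± 0.0266, adjusted p = 0.209), did not pass. In the list of gluconeogenesis and fasting, 6 of 10 members were higher, among them Igfbp2 (1.82-fold higher), Foxo1 (1.36-fold higher) and Pcx, pyruvate carboxylase (1.33-fold higher). The exception was Igfbp1, an insulin-repressed binding protein, which was 2.97-fold lower (adjusted p = 3.43e-05).

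Genes that assemble phospholipids and triglycerides and export them were mostly higher. Of 13 members 8 (61.5%) were higher and 1 lower, with a median difference of 0.0910, and 5 rose with the score in the mice between. Mttp, which loads lipid onto apolipoprotein B, ran from -0.0283 to 0.258 (median 0.101) in desaturase-high livers, against -0.664 to 0.0837 (median -0.0947) in desaturase-low livers, and was 1.76-fold higher (0.244 ± 0.0386 log10, adjusted p = 8.10e-07). Dgat2, of the last step of triglyceride synthesis, was 1.66-fold higher (adjusted p = 7.48e-05), whereas Dgat1 differed by 0.0359 ± 0.0191 and did not pass (adjusted p = 0.123). Pcyt2, of phosphatidylethanolamine synthesis, was 1.61-fold higher (adjusted p = 2.88e-08), and 22 desaturase-low livers lay below every desaturase-high liver.

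Pemt, which methylates phosphatidylethanolamine to phosphatidylcholine, was 1.37-fold higher (adjusted p = 0.00131), Agpat2 1.23-fold higher, Agpat3 1.35-fold higher and the phospholipase Pla2g6 1.30-fold higher (adjusted p = 1.29e-08). The gain in Agpat3 was not seen within the limit-rich arrays, where its difference was -0.00881. Pld1, a phospholipase D, was 1.32-fold lower (adjusted p = 0.0129). Of the lipins, the phosphatidate phosphatases, Lpin2 was 1.23-fold higher (adjusted p = 0.0163), and Lpin1 (-0.114 ± 0.111, adjusted p = 0.429) and Lpin3 (-0.00227 ± 0.0260, adjusted p = 0.953) did not pass. Chpt1, of the last step of phosphatidylcholine synthesis, had a difference of 0.0619 ± 0.0479 and did not pass (adjusted p = 0.304). In the list of apolipoproteins and lipoprotein handling 8 of 13 (61.5%) were higher and none lower, with a median of 0.119. Pon1, the paraoxonase of HDL, was 2.84-fold higher (adjusted p = 1.91e-05), Lcat, which esterifies HDL cholesterol, 1.90-fold higher (adjusted p = 4.17e-06), Apoa2 1.92-fold higher (adjusted p = 5.62e-06) and Apoa5 1.59-fold higher (adjusted p = 1.42e-05).

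The genes of fatty acid oxidation were higher in desaturase-high livers by larger amounts. Of 18 measured members, 16 (88.9%) were higher, all by at least 1.5-fold, and none was lower, with a median difference of 0.361 (2.30-fold). Ppara itself ran from -0.0848 to 0.216 (median 0.0739) in desaturase-high livers, against -0.965 to -0.0191 (median -0.236) in desaturase-low livers. It was 2.35-fold higher (0.371 ± 0.0418 log10, adjusted p = 2.89e-10), and 25 of the 26 desaturase-low livers lay below every desaturase-high liver. Cyp4a10, a microsomal fatty acid hydroxylase and classical target of PPAR alpha, ran from -0.326 to 0.448 (median 0.185) in desaturase-high livers, against -1.76 to 0.0319 (median -0.346) in desaturase-low livers, and was 5.28-fold higher (adjusted p = 1.01e-07). Its SD was 0.154 in desaturase-high livers and 0.518 in desaturase-low livers, so the low set was the more spread.

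Cyp4a14, a close paralog of Cyp4a10 whose probe may share signal with it, was 6.08-fold higher (adjusted p = 6.41e-07) and Acot1, a cytosolic thioesterase, 4.18-fold higher (adjusted p = 6.87e-09). Cpt2, of mitochondrial import, was 2.25-fold higher (adjusted p = 3.50e-08), and Crat, carnitine acetyltransferase, 1.62-fold higher (0.208 ± 0.0243 log10, adjusted p = 7.59e-10). The mice between repeated the direction for Ppara (0.204 log10 per unit of score, adjusted p = 0.000961), Cyp4a10 (adjusted p = 0.0115), Cpt2 (adjusted p = 0.0402) and Crat (adjusted p = 0.0203), and in all 6 of the 18 members passed there. With the macrophage mean as a covariate the median difference was 0.295 and 2 members passed, Crat among them (adjusted p = 0.0329), while Ppara had 0.297 (adjusted p = 0.0510).

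Bile acid genes were higher as a group. All 14 measured members of the list of bile acid synthesis, transport and the receptor FXR were higher, with a median difference of 0.250 (1.78-fold), and 12 were called with the mouse number as a block. Slc10a1, the importer of bile acids from blood, ran from 0.0118 to 0.304 (median 0.124) in desaturase-high livers, against -0.924 to 0.352 (median -0.248) in desaturase-low livers, and was 2.46-fold higher (0.391 ± 0.0572 log10, adjusted p = 1.55e-07). Slc27a5, which activates bile acids for conjugation, was 2.22-fold higher (adjusted p = 1.04e-06), Amacr, a racemase of side-chain oxidation, 1.78-fold higher (adjusted p = 1.30e-05), and Abcb4, the phospholipid exporter of the bile canaliculus, 1.64-fold higher (adjusted p = 1.49e-06). None of the 14 passed with the macrophage mean as a covariate, where the median was 0.211.

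Cholesterol synthesis split. Of 14 members 6 (42.9%) were higher, against 24.5% of all genes, with a median of 0.0329. The 3 lower members (21.4%) were close to the share of all genes (19.7%). Tm7sf2, Ebp and Sc5d, of the late steps between lanosterol and cholesterol, were 2.28-fold higher, 1.71-fold higher and 1.77-fold higher, and Hsd17b7, also of the late steps, 1.68-fold higher. Sqle, squalene epoxidase, an early and strongly regulated step, was 1.90-fold lower (adjusted p = 0.000630), and Mvd 1.19-fold lower. Dhcr7, which like Sc5d acts in the late steps, was 1.18-fold lower (adjusted p = 0.0305), so late steps were called in both directions. In the mice between, Tm7sf2 and Ebp rose with the score (adjusted p = 0.00133 and 0.0163), while Sc5d had a slope of -0.00142 (adjusted p = 0.995). The median of the list was -0.00973 with the macrophage mean as a covariate and -0.0570 within the limit-rich arrays.

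Targets of the oxysterol receptor LXR also went both ways, with 3 of 8 higher and 3 lower (37.5% each, against 24.5% and 19.7% of all genes). Abcg8, the hepatocyte exporter of sterols into bile, was 1.46-fold higher (adjusted p = 0.000220), whereas Abcg1, a sterol exporter abundant in macrophages, ran from -0.602 to -0.112 (median -0.323) in desaturase-high livers, against -0.295 to 0.453 (median 0.252) in desaturase-low livers and was 3.31-fold lower (adjusted p = 8.79e-13). Lpl, lipoprotein lipase, was 3.34-fold lower (adjusted p = 2.86e-12). Of genes of lipid droplets and fatty acid uptake, 8 of 16 were higher, with G0s2, an inhibitor of adipose triglyceride lipase, 3.50-fold higher (adjusted p = 1.92e-07) and Slc27a2, a very long-chain acyl-CoA synthetase, 2.27-fold higher (adjusted p = 6.68e-08). The 8 include Fabp1, which shared its value with Scd1 on 87 of 104 arrays. The 2 lower members were Fabp4, a fatty acid binding protein of fat cells and macrophages (3.72-fold lower, adjusted p = 5.04e-12), and Cidea, a droplet protein (2.53-fold lower, adjusted p = 0.000133, n = 24 each).

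Drug-metabolising cytochrome P450 genes were mostly higher, while genes of glutathione metabolism were called in both directions. Among the P450 genes and their receptors 11 of 17 (64.7%) were higher and none lower, with a median of 0.220, and 8 rose with the score in the mice between. Cyp2c37 ran from -0.228 to 0.342 (median 0.165) in desaturase-high livers, against -1.33 to 0.123 (median -0.270) in desaturase-low livers, and was 3.12-fold higher (adjusted p = 3.90e-07). Cyp2c40 was 2.95-fold higher, Cyp2d10 1.66-fold higher and the nuclear receptor Nr1i3, known as CAR, 1.84-fold higher (adjusted p = 7.78e-07), and probes of the Cyp2c family may share signal. Of the glutathione and Nrf2 list 4 of 14 (28.6%) were higher, close to the 24.5% of all genes, among them Gclc (1.61-fold higher) and Gstt1 (1.58-fold higher). A further 5 (35.7%) were lower, against 19.7% of all genes, and the median of the list was -0.0455. The lower members include Hmox1, heme oxygenase, which is also a macrophage gene (2.33-fold lower, adjusted p = 2.82e-11), and Gstm3 (3.57-fold lower, adjusted p = 5.49e-05).

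Genes known to favour female liver and genes known to favour male liver were both mostly higher. Of 10 female-biased genes 8 were higher and none lower (median 0.414), and of 7 male-biased genes 4 were higher and none lower (median 0.213). The block of mouse number gave 7 higher and 1 lower among the female-biased genes, and 3 higher and 0 lower among the male-biased genes. Cyp2b9, a female-biased P450, ran from 0.0410 to 0.337 (median 0.141) in desaturase-high livers, against -0.928 to 0.0693 (median -0.247) in desaturase-low livers. It was 2.85-fold higher (0.455 ± 0.0528 log10, adjusted p = 6.60e-10), and 25 desaturase-low livers lay below every desaturase-high liver. It rose with the score in the mice between (adjusted p = 7.52e-05) and passed with the macrophage mean as a covariate (0.424, adjusted p = 0.0265). Cux2, a female-specific transcription factor of mouse liver, was 3.10-fold higher (adjusted p = 7.33e-07) but had a slope of 0.0545 in the mice between (adjusted p = 0.878). Of the male-biased genes Hsd3b5 was 1.63-fold higher (adjusted p = 0.00546) and Cyp7b1 1.91-fold higher (adjusted p = 4.59e-05), but Hsd3b5 did not pass with the mouse number as a block (0.163, adjusted p = 0.0890).

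By position in the liver lobule, 6 of 8 pericentral genes were higher and 1 lower (median 0.264), and 2 of 6 periportal genes were higher and none lower (median 0.0859). In the mice between, 0 of the 8 pericentral and 1 of the 6 periportal genes rose with the score. The difference between the lists was not tested. Glul, glutamine synthetase of the cells at the central vein, was 2.05-fold higher (adjusted p = 8.54e-06) and Cyp2e1 2.99-fold higher (adjusted p = 1.58e-06). The 2 probes of Lgr5 disagreed, with differences of 0.0225 and 0.335. Among periportal genes Cyp2f2 was 4.40-fold higher (adjusted p = 9.39e-07), and Ass1 (0.0621 ± 0.0509, adjusted p = 0.336) and Asl (0.110 ± 0.0572, adjusted p = 0.115) of the urea cycle did not pass. Of 8 general hepatocyte markers 4 were higher (median 0.0651), among them Ttr (2.18-fold higher) and Hnf4a (1.26-fold higher). Alb, albumin, differed by 0.0195 ± 0.0402 (adjusted p = 0.726). Alb and Ahsg (difference 0.0373), named here after their values were seen, shared the value of Scd1 on 83 and 55 of 104 arrays. The median of this list is therefore not set against those of the other lists.

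The 15 largest positive differences were led by Car3, carbonic anhydrase 3, which ran from -0.590 to 0.478 (median 0.123) in desaturase-high livers, against -1.98 to 0.177 (median -0.824) in desaturase-low livers (n = 26 and 24) and was 7.71-fold higher (adjusted p = 3.41e-06). Hao2, a peroxisomal oxidase of long-chain hydroxy acids, was 7.55-fold higher (adjusted p = 6.55e-08) and Sult2a8, a liver sulfotransferase, 7.21-fold higher (adjusted p = 1.77e-08). Sult3a1, another sulfotransferase, was 6.26-fold higher (adjusted p = 0.00196), but its SD was 0.779 in desaturase-high livers and 0.786 in desaturase-low livers, so the sets overlap over most of their range, and it did not pass with the mouse number as a block (adjusted p = 0.0530). The others after Cyp4a14 and Cyp4a10 were Ces3a, a carboxylesterase (4.66-fold higher), Cyp2f2, Acot1, Pdxdc1 (4.16-fold higher), Serpina6, the corticosteroid-binding globulin (4.13-fold higher), Paqr9 (4.08-fold higher), Serpinb1a (3.76-fold higher), Mup5, a major urinary protein (3.61-fold higher), and Krt23, a keratin (3.53-fold higher).

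Genes of macrophages, of matrix-forming cells, of bile duct epithelium, of neutrophils and of dividing cells were lower in desaturase-high livers. Of the 17 macrophage and Kupffer cell genes 13 (76.5%) were lower, all by at least 1.5-fold, and 1 was higher, with a median difference of -0.382 (2.41-fold lower). Ctss, the lysosomal protease cathepsin S, ran from -0.821 to -0.126 (median -0.484) in desaturase-high livers, against -0.245 to 0.893 (median 0.264) in desaturase-low livers. It was 5.56-fold lower (-0.745 ± 0.0654 log10, adjusted p = 3.91e-13), with 23 desaturase-low livers above every desaturase-high liver, and it fell with the score in the mice between (adjusted p = 0.000184). Fcer1g, an adaptor of Fc receptors, was 3.28-fold lower (adjusted p = 1.36e-12), and the complement genes C1qb and C1qc were 2.50-fold lower and 2.41-fold lower.

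Markers of resident macrophages were not of 1 kind. Adgre1 and Cd5l were among the 13 lower members, while some others did not pass. All of these are named here after their values were seen. Clec4f, found on Kupffer cells, differed by 0.135 ± 0.0619 (adjusted p = 0.0703), the scavenger receptor Marco by -0.205 ± 0.106 (adjusted p = 0.113) and Cd163, a haemoglobin receptor, by 0.185 ± 0.111 (adjusted p = 0.177). Trem2, a receptor of lipid-associated macrophages, was 1.11-fold higher (adjusted p = 0.00331) and was the 1 member called higher. In the mice between, 12 of the 17 fell with the score. Among class II genes of antigen presentation 4 of 6 were lower, H2-Aa being 1.94-fold lower (adjusted p = 9.28e-06), and 2 of the 6 were called with the mouse number as a block. By limma 0 of 13 T and NK cell genes passed, 3 having an unadjusted p under 0.05, while 3 passed by ranks and 4 were lower with the mouse number as a block. Of B and plasma cell genes 1 of 8 passed, Cd22 (1.69-fold lower, adjusted p = 0.00729), which did not pass with the mouse number as a block (-0.194, adjusted p = 0.0613) or within the arrays that were not limit-rich (-0.152, adjusted p = 0.118).

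Matrix genes moved as strongly. Of 16 stellate cell and fibroblast genes 12 were lower and none higher, all 12 by at least 1.5-fold, with a median of -0.397 (2.49-fold lower), and 9 fell with the score in the mice between. Col1a1, a chain of fibrillar collagen, ran from -1.18 to -0.127 (median -0.643) in desaturase-high livers, against -0.597 to 0.799 (median 0.268) in desaturase-low livers, and was 6.71-fold lower (-0.827 ± 0.0983 log10, adjusted p = 1.25e-09). Sparc, a matrix glycoprotein, ran from -0.587 to -0.0161 (median -0.324) in desaturase-high livers, against -0.218 to 0.582 (median 0.292) in desaturase-low livers. It was 3.52-fold lower (adjusted p = 2.35e-13) and also passed with the macrophage mean as a covariate (-0.396, adjusted p = 0.0156). Thbs2 was 4.10-fold lower (adjusted p = 6.10e-12), Col3a1 4.79-fold lower (adjusted p = 2.51e-10) and Col4a1, of basement membrane, 3.75-fold lower (adjusted p = 7.31e-12).

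Of 8 cholangiocyte genes 7 (87.5%) were lower and none higher, with a median of -0.294, but 1 fell with the score in the mice between. Mmp7, an epithelial metalloproteinase, ran from -1.50 to 0.102 (median -0.925) in desaturase-high livers, against -0.923 to 1.24 (median -0.123) in desaturase-low livers, the largest negative difference of all (8.77-fold lower, adjusted p = 7.31e-07). In the mice between it had a slope of -0.382 and did not pass (adjusted p = 0.356). Epcam was 3.00-fold lower (adjusted p = 0.000639), Krt7 2.26-fold lower (adjusted p = 0.000597), and both probes of Sox9 were lower. Of 9 neutrophil genes 7 (77.8%) were lower. S100a8, a subunit of calprotectin, was 6.23-fold lower (adjusted p = 3.50e-11), S100a9 5.16-fold lower (adjusted p = 2.27e-10) and Ngp, a granule protein, 6.65-fold lower (adjusted p = 1.11e-07).

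Endothelial genes were lower for 2 of 7 members (28.6%, against 19.7% of all genes), and for 1 with the mouse number as a block. Lyve1, of sinusoids and lymphatics, was 2.96-fold lower (adjusted p = 1.53e-08) and Flt1, a receptor of VEGF, 1.27-fold lower (adjusted p = 0.0306), but Flt1 had a difference of -0.0217 with the mouse number as a block and did not pass (adjusted p = 0.723). Eng (-0.0362 ± 0.0206, adjusted p = 0.150) and Pecam1 (-0.0252 ± 0.0154, adjusted p = 0.182) did not pass. Proliferation genes were lower in 17 of 18 cases (94.4%), by less on the median (-0.196). Ccna2, cyclin A2, ran from -0.505 to 0.0678 (median -0.220) in desaturase-high livers, against -0.366 to 1.07 (median 0.108) in desaturase-low livers, and was 2.64-fold lower (adjusted p = 8.47e-07). Mki67 was 2.42-fold lower (adjusted p = 3.82e-05), Cdc20 2.37-fold lower and Pcna 1.41-fold lower, and 1 of the 18 fell with the score in the mice between. By limma 0 of 4 erythroid and 0 of 7 pancreatic acinar genes passed (1 of each with an unadjusted p under 0.05, and 2 and 3 past the threshold by ranks), and 4 acinar genes were higher with the mouse number as a block. The Y-linked Eif2s3y and Kdm5d, which female mice lack, passed neither by limma nor by ranks, and 1 of them was higher with the block. Of 10 skeletal muscle genes 2 were higher, and of 4 adipocyte genes 2, each by under 1.5-fold.

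The remaining large negative differences, besides Mmp7, Col1a1, Ngp, S100a8, S100a9 and Ctss, included genes of several cell types. Lcn2, an iron-binding acute-phase protein, ran from -1.06 to -0.0570 (median -0.732) in desaturase-high livers, against -0.751 to 0.820 (median 0.214) in desaturase-low livers, and was 7.29-fold lower (adjusted p = 1.65e-11). Anxa1, a phospholipid-binding protein, ran from -0.772 to -0.0972 (median -0.483) in desaturase-high livers, against -0.128 to 0.860 (median 0.299) in desaturase-low livers. It was 6.36-fold lower (-0.803 ± 0.0590 log10) with the smallest adjusted p of all genes, 9.03e-15, and 25 of the 26 desaturase-high livers lay below every desaturase-low liver. Emp1, an epithelial membrane protein, was 6.73-fold lower (adjusted p = 6.50e-14), Gpnmb, of lipid-laden macrophages, 6.45-fold lower, Fabp5 5.80-fold lower, Lgals3 5.74-fold lower, Bex1 5.47-fold lower, Il7r 5.33-fold lower and Chil3, a chitinase-like protein of macrophages, 5.16-fold lower. Anxa1 and Emp1 also fell in the mice between (adjusted p = 0.000200 and 0.000342) and passed with the macrophage mean as a covariate (adjusted p = 0.0156 and 0.0218).

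**Figure D3:**
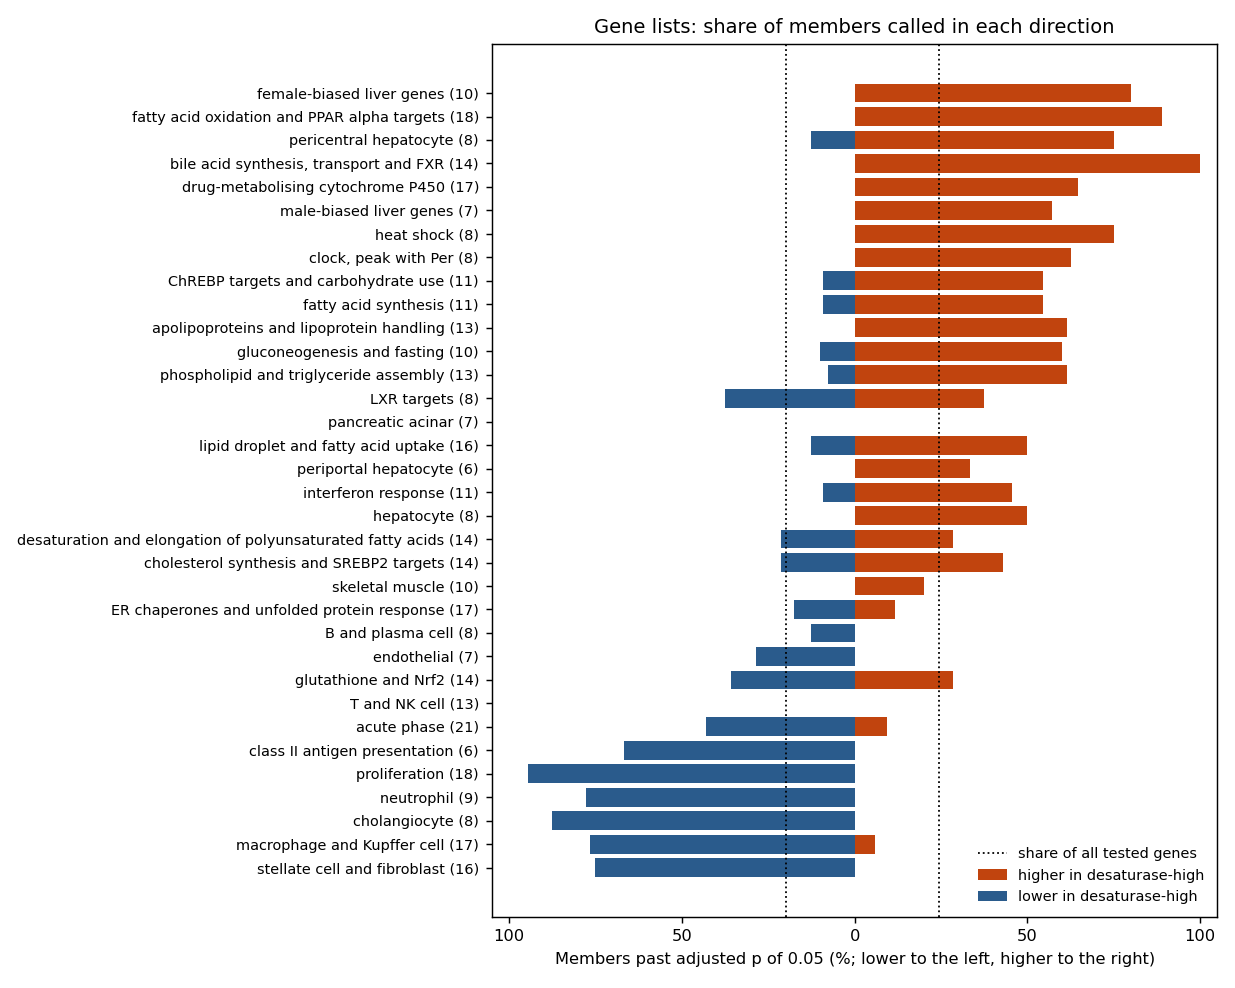
Share of the measured members of each list with at least 6 such members that were higher (orange, to the right) or lower (blue, to the left) in desaturase-high than in desaturase-low livers, with the number measured in brackets. Dotted lines mark the shares of all 12312 genes, 24.5% and 19.7%. Bile acid and fatty acid oxidation genes reach 100% and 88.9% to the right, and proliferation and cholangiocyte genes 94.4% and 87.5% to the left.

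Stress and defence lists were mixed. Of 21 acute-phase genes 9 were lower and 2 higher. Cebpd was 2.59-fold lower (adjusted p = 5.68e-12) and Cp, ceruloplasmin, 1.99-fold lower (adjusted p = 1.40e-09), while Itih4 (1.62-fold higher) and Crp (1.37-fold higher) were higher, and with the mouse number as a block 5 were lower and 4 higher. Of 11 interferon response genes 5 were higher, Ifit1 by 1.75-fold (adjusted p = 5.78e-06), and 1 lower, the related Ifit2 (1.57-fold lower, adjusted p = 0.000132). Heat shock genes were higher for 6 of 8 members (median 0.131), among them Hsph1 (2.02-fold higher, adjusted p = 2.26e-06) and the mitochondrial chaperonin Hspd1 (1.56-fold higher, adjusted p = 2.13e-08), and Hsph1 passed with the macrophage mean as a covariate (adjusted p = 0.0218). In the mice between 0 of the 8 rose with the score, and Hsph1 had a slope of 0.0366 (adjusted p = 0.830). Of 17 genes of endoplasmic reticulum stress 2 were higher and 3 lower, the stress factor Atf3 by 2.62-fold (adjusted p = 2.64e-08).

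Some clock genes were called, and the labels give no time of killing. Of 8 genes that peak with the Per genes 5 (62.5%) were higher, led by Dbp (3.11-fold higher, adjusted p = 1.30e-05), against 24.5% of all genes. Of 5 genes that peak with Arntl, opposite to them, Arntl itself was the 1 that passed, 1.98-fold lower (adjusted p = 0.00144). That is 20% of the list, close to the 19.7% of all genes. In the mice between 0 genes of either list passed. With the mouse number as a block 2 of the 8 were higher, against 2655 of all 12312 genes. Within the limit-rich arrays the differences of Dbp, Per3 and Usp2 were at or below 0. The 2 probes of Per3 differed by 0.0877 and 0.240, and the first did not pass.

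With the macrophage mean as a covariate the lists moved by different amounts. The median of the macrophage list itself was then -0.0454, as its own mean was in the fit, and that of the acute-phase list 0.0407. The medians of fatty acid oxidation (0.295), pericentral genes (0.247) and proliferation (-0.207) stayed near their earlier values, and those of fatty acid synthesis (0.0373) and of ChREBP targets (0.0211) fell well below theirs. With the covariate 2 of the 18 fatty acid oxidation genes passed, 0 of the 8 pericentral genes (against 6 higher and 1 lower without it) and 0 of the 18 proliferation genes (against 17 lower). The 71 genes that passed include, among higher genes, Cyp2b9, Cpt1a, Crat, Lipe, Hsph1, Hspa8 and Pex6, and among lower genes Emp1, Anxa1, Sparc, Frzb, Ccdc80 and Col6a1, the names outside the rule being chosen after their values were seen. The covariate and the sets overlap closely, as given above. At an unadjusted p under 0.05, 1047 genes were higher and 1107 lower with the covariate, against 3518 and 2716 without it.

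**Figure D4:**
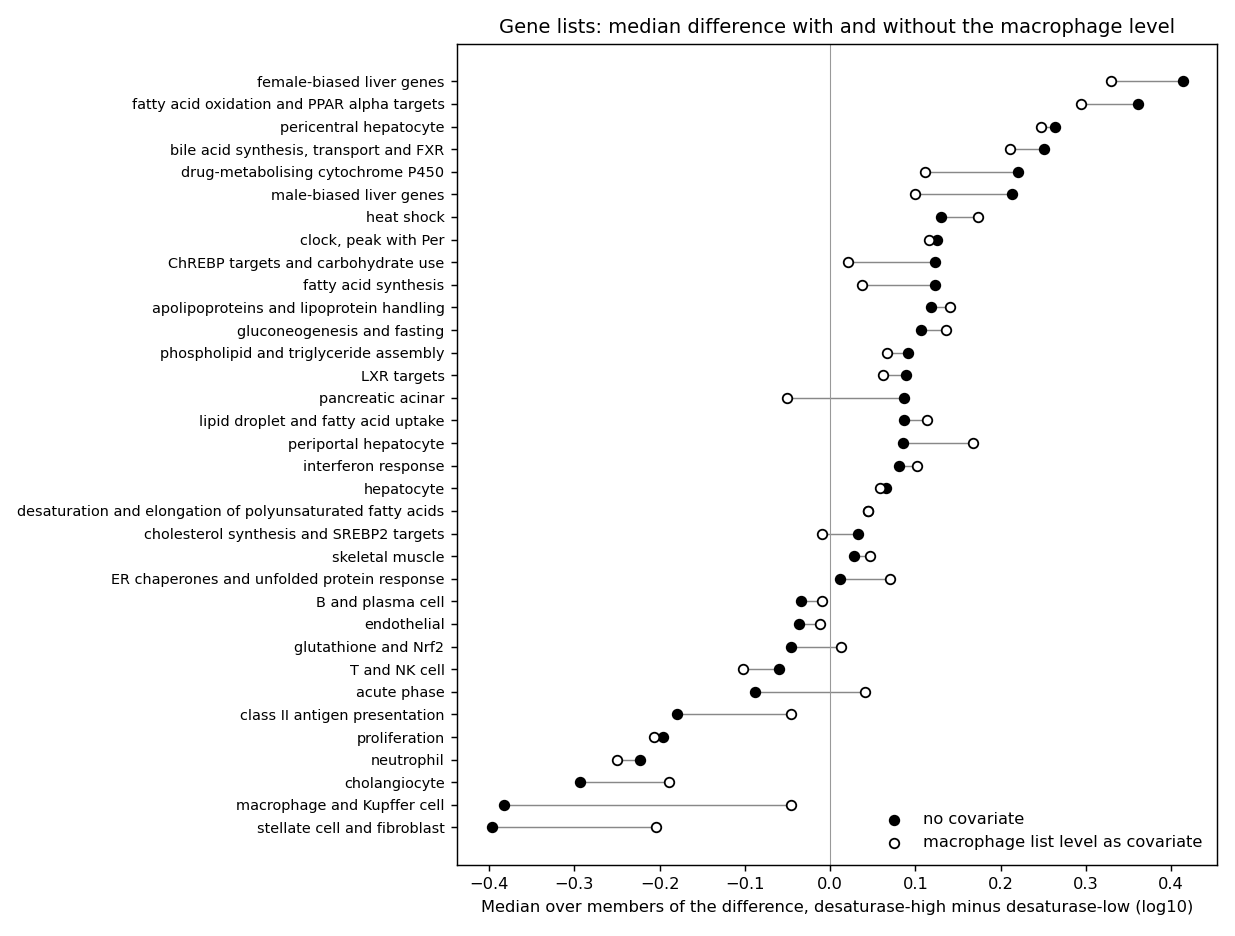
Median over each list's measured members of the log10 difference, desaturase-high minus desaturase-low, without (filled) and with (open) each mouse's mean level of the macrophage list as a covariate, for lists with at least 6 measured members. Fatty acid oxidation lies at 0.295 with the covariate and at 0.361 without it, and the macrophage list at -0.0454 and -0.382.

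With the mouse number as a block, and within the limit-rich and the other arrays, the leading genes differed as follows. Elovl5 had a difference of 0.370 with the mouse number as a block (adjusted p = 1.65e-07), of 0.486 within the limit-rich arrays (adjusted p = 0.0132) and of 0.414 within the other arrays (adjusted p = 2.59e-08). For Ppara the 3 differences were 0.398 (adjusted p = 1.40e-08), 0.318 (adjusted p = 0.0204) and 0.379 (adjusted p = 4.89e-08), and for Ctss -0.642 (adjusted p = 2.57e-09), -0.749 (adjusted p = 0.0163) and -0.739 (adjusted p = 2.73e-10). For Col1a1 they were -0.722 (adjusted p = 1.83e-06), -0.869 (adjusted p = 0.106) and -0.821 (adjusted p = 2.99e-08). All 4 genes kept their direction in each of these fits.

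For 6 of the 12312 genes the sets did not overlap at all, 2 higher (0.0162%) and 4 lower (0.0325%), named here after their values were seen. Pex6, of peroxisome assembly, had -0.00493 as its lowest desaturase-high and -0.0179 as its highest desaturase-low value. Cyp4f15, a fatty acid hydroxylase, had -0.000780 and -0.00689. The lower ones were S100a11, a calcium-binding protein, Lox, which crosslinks collagen, Frzb, a secreted Wnt antagonist, and Fkbp7, a prolyl isomerase. All 6 were also called in the mice between, S100a11 with an adjusted p of 0.000287 and Lox with 0.0343.

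Single mice show how far the genes of a set keep together. Mouse 26, of lowest score (-3.97), had the lowest values of all 26 desaturase-low livers for Ppara (-0.965), Cyp4a10 (-1.76) and Elovl2 (-0.888) and the highest for Mmp7 (1.24). Its macrophage mean of -0.0224, by contrast, was the fifth lowest of the set. Mouse 63, of highest score (1.43) and on a limit-rich array, had the highest Elovl5 (0.315) and the lowest Scd2 (-0.760), Emp1 (-0.824) and Col1a1 (-1.18) of the 26 desaturase-high livers. With mouse 26 left out the counts were 2913 higher and 2358 lower.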

How the data were processed

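The deposited values are log10 ratios of mouse to pool, 1 per probe and array, as read here from the value table of the authors; the labels state the pool, while the base, dyes, scanner software and normalization were not given in the sources used here. Values at -2 or 2 (1.07%) were set missing, and a further 1.69% were missing. Of 23536 probes, 14744 had 1 gene symbol, 18 several and 8774 none here. The 13238 with 1 symbol and a value on at least 90% of arrays were averaged per gene, and 11972 genes were named through the gene table of assembly GRCm38.p6. The sets were compared with limma 3.58.1 in R 4.3.3 over 12312 genes, with p-values adjusted by Benjamini and Hochberg at 0.05. Of the 12315 genes kept, the 3 score genes were left out of the test. The mice between were fitted with a slope on the score. The fit was tested on simulated data in which each gene was drawn independently. That checks the code and cannot show how calls behave when genes vary together, as with sets cut from a score. Matrices were prepared in Python 3.11.15 with pandas 2.3.3.

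The members, the 38 gene lists (507 genes, 395 measured) and the tests were chosen with earlier results of these data known. Unless said otherwise, genes named in the text come from the 15 largest positive and the 15 largest negative called differences, the measured members of the first 4 lists, up to 4 members of smallest p and any member called against the majority of each other list, and genes next to the score genes. The p-values treat each mouse as a replicate and cover the spread between mice and arrays together. Alternatives changed the mice, the score, the limits, the scaling, the filter and the test.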

Additional observations from a re-analysis of the deposited data

How the results depend on the processing

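Within the limit-rich arrays alone, 6 against 3, 423 genes were higher and 479 lower. Among odd-numbered mice 1601 genes were higher, and among even-numbered mice 1745 were higher and 1547 lower. Alternatives added after seeing the data gave 617 higher and 989 lower within mice of higher number, and 33 and 38 with the macrophage mean as a covariate. In the other alternatives the counts stayed within 1.5 times those reported (3021 and 2428), from 2114 to 3830 higher and from 1636 to 3029 lower, with Mlxipl alone as the score giving 2126 and 2222. Named genes called overall changed sign within the limit-rich arrays as follows, in log10 differences: Acss2 -0.00723, Agpat3 -0.00881, Slc2a2 -0.0437, Apoa1 -0.0209, Hal -0.0304, Ifit2 0.0106, Flt1 0.0328, Dbp -1.8e-05, Per3 -0.133 and Usp2 -0.223. H2-DMb1 was 0.00247 within mice of lower number, Flt1 0.0493 within those of higher number, and Ckm -0.0158 with the score of Mlxipl alone. The cause was not tested. Of the 102 named genes that were higher, 97 stayed called with array medians subtracted, and of the 65 that were lower, all 65. No paired analysis was possible because the mice carry no replicate numbers that pair one set with the other. With 1 array a mouse, array error cannot be told apart from differences between mice, and spot brightness against background was not used here.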

Other observations

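No mouse of the highest or lowest 26 by Mlxipl alone lay in the opposite desaturase set. Over all 104 mice the score and the macrophage mean correlated at -0.658, over the 52 mice between at -0.531 and without mouse 26 at -0.716, given as a description of arrays that share a pool. Counting the first window of each gene, 9.51% of 389 genes higher by at least 1.5-fold held CACGTG, 8.91% of 741 genes lower by as much, and 9.51% of all 9740 tested genes with a window. For GAGGAAGT the shares were 3.34%, 3.78% and 2.78%.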
